A study of Mus musculus with 4 samples.

Results

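The enzymes that clear superoxide and peroxides were examined here through 10 genes: the superoxide dismutases Sod1 and Sod2, catalase (Cat), the glutathione peroxidases Gpx1 and Gpx4, the peroxiredoxins Prdx1, Prdx3, Prdx5 and Prdx6, and mitochondrial thioredoxin (Txn2). They were taken by gene name, in a choice made with earlier results of these data known, and are 10 of the 31093 gene names on the array. Their 17 probes are all the non-control probes that carry these names, out of 39429. The cells were IMS32, a Schwann cell line from adult mouse that became immortal spontaneously, so the RNA came from a cultured line and not from nerve tissue. All cultures stood for 1 h in DMEM with 5% FBS, and RNA of each condition was hybridized to 1 one-colour Agilent array. The control was 5 mM glucose with 1 mM pyruvate, written [Glc 5 mM/Pyr (+)]. The next, [Glc 5 mM/Pyr (-)], had the same glucose and no pyruvate, and the last pair had 15 mM glucose, with 1 mM pyruvate in [Glc 15 mM/Pyr (+)] and none in [Glc 15 mM/Pyr (-)]. Where 4 values follow each other below, they stand in this order of cultures. The design asks what removing pyruvate does at normal and at high glucose, and what high glucose does with and without pyruvate. Each condition has 1 array, so no replicate stands behind any difference, and the number of arrays limits the precision of every value below.

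Superoxide, the first product when oxygen takes up a stray electron, is turned into hydrogen peroxide by the superoxide dismutases. Catalase splits hydrogen peroxide directly, glutathione peroxidases reduce peroxides with glutathione, and most peroxiredoxins reduce them with electrons from thioredoxin. Pyruvate itself reacts with hydrogen peroxide without an enzyme, so its presence in a medium bears on the same molecule that these enzymes remove.

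Each value below comes from a stretch of 60 bases. For Gpx1, the gene with the largest difference between high-glucose cultures, and for Cat, the gene with the largest one between glucose levels with pyruvate, as well as Gpx4, Prdx5 and Prdx6, 1 probe each is shown. In these 5 probes at least 1 reading frame had no stop codon along its whole length. The same was so for some other probes, among them the brighter of Cat, both of Prdx1 and the brightest of Txn2. The 5 probes are printed 5' to 3' in lower case, with no base set apart, and are among the sequences the signals were read from. The printed Cat probe is its dimmer one, with a glucose difference with pyruvate of -0.13, against -0.43 for the brighter probe, which is not printed. The Gpx1 probe lies at chr9:108242276-108242335 (mm9, plus strand), that of Gpx4 at chr10:79518783-79518842 (mm9, plus strand), that of Prdx5 at chr19:6981371-6981430 (mm9, minus strand) and that of Prdx6 at chr1:163173715-163173774 (mm9, minus strand), while this Cat probe carries no position in the scanner files. Exons and introns at these positions were not annotated here.
Gpx1 probe A_52_P684378: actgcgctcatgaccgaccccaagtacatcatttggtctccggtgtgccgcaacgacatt
Cat probe A_51_P191611: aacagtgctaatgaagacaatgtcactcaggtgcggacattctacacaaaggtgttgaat
Gpx4 probe A_51_P462448: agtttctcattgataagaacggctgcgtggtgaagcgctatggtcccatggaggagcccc
Prdx5 probe A_55_P1979463: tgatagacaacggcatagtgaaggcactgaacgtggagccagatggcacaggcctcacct
Prdx6 probe A_55_P2176731: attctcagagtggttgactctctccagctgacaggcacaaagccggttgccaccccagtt

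The stretch from 250 bases before to 50 after the start of transcription was held by the RefSeq tables (GRCm38.p6) for 9 of the 10 genes, and that of Prdx6 is named only. The core of the antioxidant response element, TGACNNNGC, the site through which the factor Nrf2 acts, was searched on both strands, and 12.4% of all 32851 promoters held a match. Among the 9 genes, Prdx1 and Sod1 held a match, in 2 of the 12 promoters of these genes. In both it lay on the strand opposite to the gene. The windows, with the match in capitals as it reads on the gene's own strand, were chr4:116685451-116685489 for Prdx1 and chr16:90220691-90220729 for Sod1, both on the plus strand of GRCm38.p6. The core of the forkhead site, TGTTTAC, had a match in 3.65% of all promoters and in 0 of the 12 promoters of the 9 genes. These matches describe letters and say nothing of binding in these cells.
Prdx1 promoter window: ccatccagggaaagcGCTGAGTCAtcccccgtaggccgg
Sod1 promoter window: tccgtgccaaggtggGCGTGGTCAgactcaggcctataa

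Levels are given as log2 of the scanner's processed intensity minus the array's 75th percentile, so that 0 is the 75th percentile of all probes on that array. Of the 17 probes, 16 were well above background on all 4 arrays, and no spot on any array was saturated. An alternative scaling on spike-in probes moved the median pyruvate difference of all genes at 5 mM glucose from -0.02 to -0.22, and the median glucose difference from -0.03 to -0.39 with pyruvate and from 0.03 to -0.20 without it, so these differences are relative to the 75th percentile and most turn below 0 under that scaling. Levels of different probes depend on the probe and are not compared with each other. A pyruvate difference is the level without pyruvate minus that with pyruvate, and a glucose difference is the level at 15 mM minus that at 5 mM.

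Across the 10 genes, removing pyruvate went with small differences of mixed direction at 5 mM glucose, and mostly with slightly higher levels at 15 mM glucose. At 5 mM glucose the pyruvate difference of the genes, each the mean of its probes, ran from -0.11 (Cat) to 0.05 (Gpx4) with a median of -0.02, which is also the median of all 24186 genes measured. It was above 0 for 4 of the 10 genes, against 43.0% of all genes and 48.6% of the 7971 genes whose brightest probe lay in the members' range of signal. At 15 mM glucose it was above 0 for 9 of the 10 genes, against 57.3% of all genes and 59.5% of those in range. The median was 0.12, against 0.04 for all genes, and the largest value was 0.31, for Gpx1. The one value below 0, -0.20 for Txn2, rests on a dim probe with only a bound, and the brightest Txn2 probe gave 0.01. None of the 10 genes passed 2-fold at 5 mM or at 15 mM glucose, where 2.85% and 4.48% of all genes did. None passed 1.5-fold either, against 5.95% and 10.3% of all genes. Of the 7971 genes in the members' range of signal, only 11 and 86 passed 1.5-fold, so few genes of this brightness did.

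**Figure D1:**
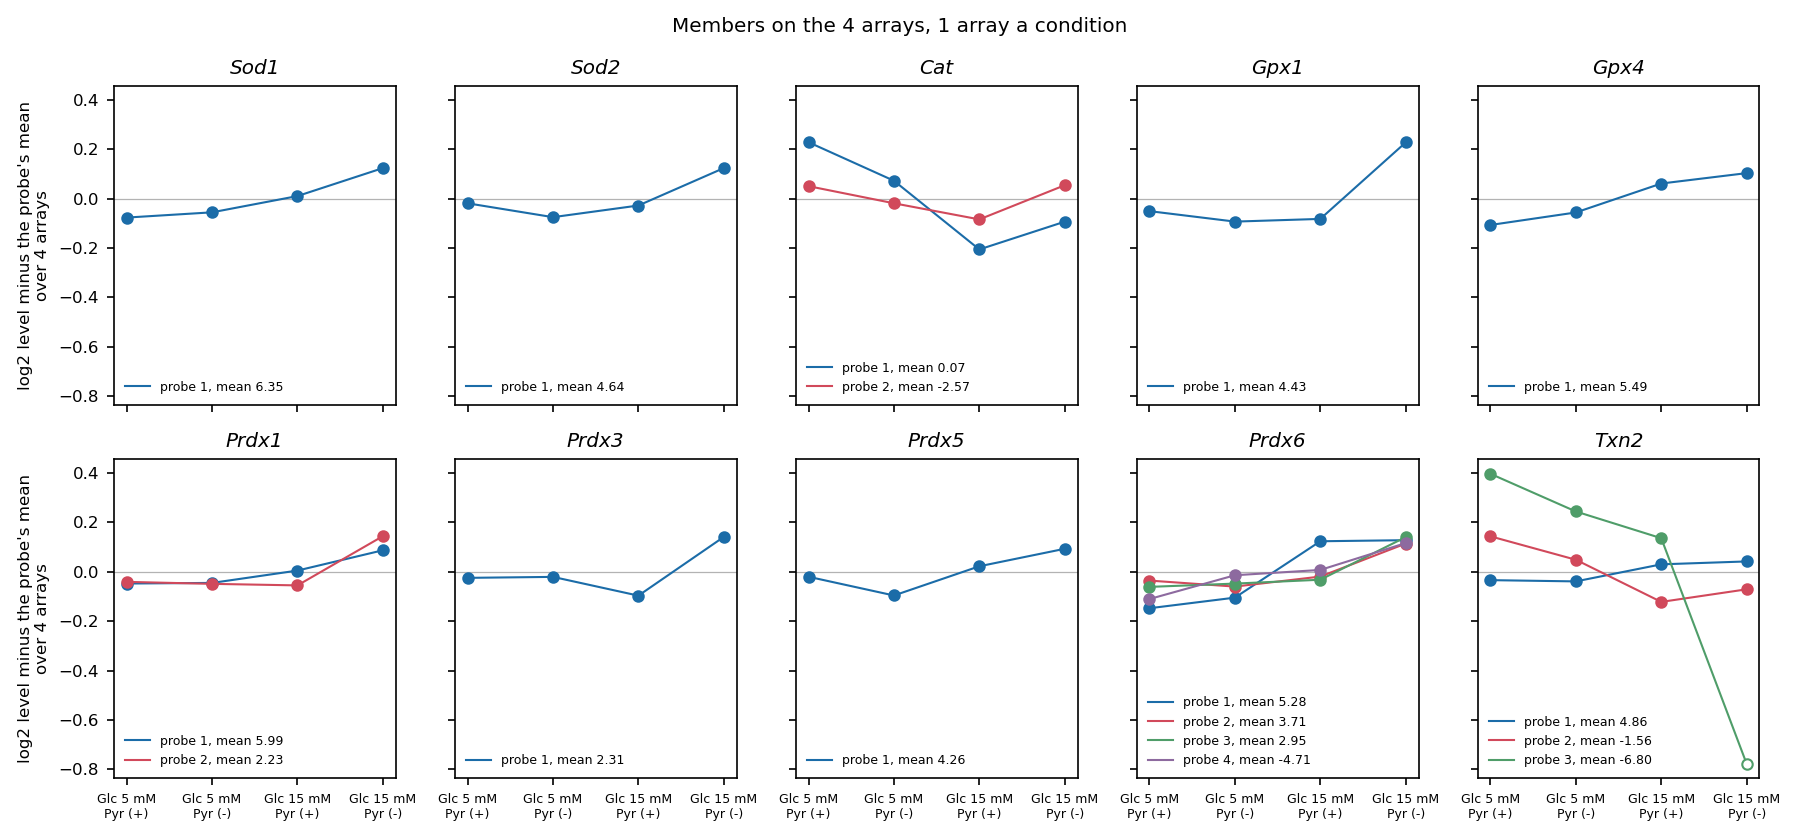
Log2 level of each probe minus that probe's own mean over the 4 arrays (y axis), for the 4 conditions (x axis), 1 panel per gene and 1 colour per probe, with the mean log2 level of each probe in the key. Each point is 1 array and an open point was not well above background. Gpx1 stands apart on [Glc 15 mM/Pyr (-)] at 4.66 against 4.34 to 4.38 elsewhere, and the Cat probes run lower at 15 mM glucose with pyruvate.

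The superoxide dismutases differed little between cultures. Sod1, the copper and zinc enzyme of the cytosol, had log2 levels of 6.27, 6.29, 6.36 and 6.47. The pyruvate difference was 0.02 at 5 mM and 0.11 at 15 mM glucose, and both 15 mM arrays stood above both 5 mM arrays. Sod2, the manganese enzyme of the mitochondrial matrix, had log2 levels of 4.62, 4.56, 4.61 and 4.76. The first 3 of these lay within 0.06 of each other, and the highest was [Glc 15 mM/Pyr (-)], with a pyruvate difference of 0.15 at 15 mM against -0.06 at 5 mM glucose.

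Catalase, the peroxisomal enzyme that splits hydrogen peroxide, showed the largest glucose difference among the 10 genes in cells with pyruvate. Its brighter probe, A_55_P2148873, had log2 levels of 0.30, 0.15, -0.13 and -0.02. Both 15 mM arrays lay below both 5 mM arrays, with a glucose difference of -0.43 with pyruvate and -0.17 without it. Among the 3128 probes of the same decile of levels, 0.512% had a lower glucose difference with pyruvate than this probe. The printed Cat probe had -2.52, -2.59, -2.66 and -2.52, a glucose difference of -0.13 with pyruvate and 0.07 without it. The probes thus shared their direction with pyruvate and not without it. Limma's additive fit gave the brighter probe a glucose coefficient of -0.30 with a standard error of 0.12 and an adjusted p of 0.772.

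Gpx1, the abundant selenium-dependent glutathione peroxidase of cytosol and mitochondria, had the largest pyruvate difference at 15 mM glucose. Its intensities were 37188, 35143, 32511 and 41169, or log2 levels of 4.38, 4.34, 4.35 and 4.66. One array, [Glc 15 mM/Pyr (-)], stood above the other 3, which lay within 0.04 of each other. The pyruvate difference was 0.31 at 15 mM glucose, a ratio of 1.24, and -0.04 at 5 mM glucose. Of the 3129 probes of the same decile of levels, 99.0% had a lower value at 15 mM and 22.2% a lower value at 5 mM. The glucose difference was -0.03 with pyruvate and 0.32 without it. The pyruvate difference of Gpx1 at 15 mM was thus 0.35 above that at 5 mM glucose. The crossed limma fit gave this value a standard error of 0.24 and an adjusted p of 0.960, with the pyruvate effect left out of the fit and so counted as its error.

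Gpx4, the glutathione peroxidase that reduces lipid peroxides in membranes, had its larger differences between glucose levels, though within those common among bright probes. Its log2 levels were 5.38 and 5.43 at 5 mM glucose with and without pyruvate, and 5.55 and 5.59 at 15 mM. Both 15 mM arrays were above both 5 mM arrays, with glucose differences of 0.17 with and 0.16 without pyruvate and pyruvate differences of 0.05 and 0.04. Of the probes in its decile of levels, 83.2% and 64.4% had a lower glucose difference, and both differences were below the scanner's error of 0.20. Under the spike-in scaling the glucose difference with pyruvate was -0.20.

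Among the peroxiredoxins, Prdx3 of the mitochondrial matrix was measured with the most spots. Its probe was printed 10 times on each array, and 10, 9, 9 and 10 spots entered the means of 2.29 ± 0.05, 2.29 ± 0.04, 2.22 ± 0.02 and 2.45 ± 0.05 (log2 level, SD over spots). Its pyruvate difference was 0.00 at 5 mM and 0.24 at 15 mM glucose. At 15 mM the highest used spot with pyruvate read 2.24 and the lowest without it 2.35, so the used spots did not overlap. The spot with pyruvate that was left out as an outlier read 2.29, also below 2.35. Of the probes of the same decile of levels, 94.5% had a lower difference. Spots of 1 array share one RNA, so this spread is technical and says nothing of how cultures vary.

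**Figure D2:**
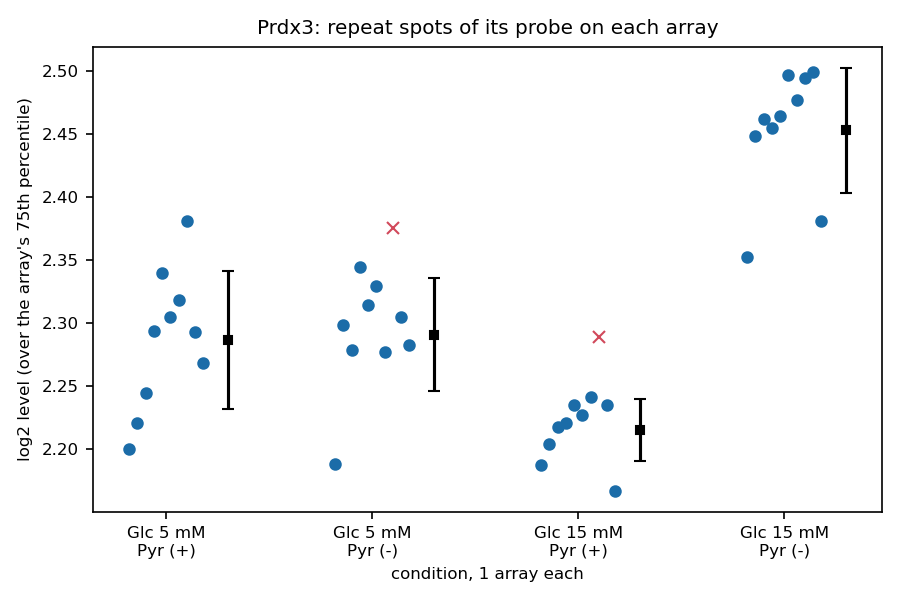
Log2 level of the Prdx3 probe (y axis) at each of its 10 spots on the 4 arrays (x axis, 1 array per condition). Circles are spots, crosses are spots left out as outliers, and squares with bars are the mean and SD of the spots used. The spots on [Glc 15 mM/Pyr (-)] start at 2.35, above the highest used spot on [Glc 15 mM/Pyr (+)] at 2.24.

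Prdx1, the main cytosolic peroxiredoxin, had 2 probes, and the brighter one read 5.94, 5.94, 5.99 and 6.07 in log2 level. Its other probe read 2.19, 2.19, 2.18 and 2.38. In both, the arrays at 5 mM glucose were alike to within 0.01 and [Glc 15 mM/Pyr (-)] was highest, with pyruvate differences at 15 mM glucose of 0.08 and 0.20. Prdx5, found in mitochondria, peroxisomes and cytosol, read 4.24, 4.17, 4.29 and 4.36. Its pyruvate difference was -0.08 at 5 mM and 0.07 at 15 mM glucose.

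Prdx6, which uses glutathione in place of thioredoxin and also acts on phospholipids, had 4 probes that differed in which step they showed. The brightest, A_55_P2103561, read 5.13, 5.17, 5.40 and 5.41, so its levels separated by glucose, with a glucose difference of 0.27 with pyruvate and a pyruvate difference of 0.00 at 15 mM. The printed probe read 2.89, 2.90, 2.91 and 3.09, so only [Glc 15 mM/Pyr (-)] stood apart, by a pyruvate difference of 0.17 at 15 mM. The other two had pyruvate differences of 0.13 and 0.11 at 15 mM glucose, the latter from a dim probe with intensities of 61.2 to 67.4. All 4 were highest in [Glc 15 mM/Pyr (-)], the brightest by only 0.004 over [Glc 15 mM/Pyr (+)]. By their brightest probe, so were 50.7% of the genes in the members' range of signal.

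Txn2, the mitochondrial thioredoxin that supplies Prdx3 and Prdx5 with electrons, had 3 probes. The brightest read 4.82, 4.82, 4.89 and 4.90, with pyruvate differences of -0.01 at 5 mM and 0.01 at 15 mM glucose. A second read -1.41, -1.51, -1.68 and -1.63, so its order by glucose was the opposite of the first. The dimmest, with intensities of 21.2, 18.5, 15.8 and 8.56, was not well above background in [Glc 15 mM/Pyr (-)], where its signal was at least 1.59-fold lower than with pyruvate and at least 1.71-fold lower than at 5 mM glucose. Each of these bounds sets the brighter array against the higher of the array's lowest signal called well above background and the probe's own signal.

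Set beside probes of like level, the 17 probes gave 68 differences, of which 4 lay outside the central 95% of their decile of levels, where 5% of probes, or 3.4 of 68, lie by construction. The count is therefore near the background, and the 4 are given as a description. They were the glucose difference with pyruvate of the brighter Cat probe and of the brightest Prdx6 probe, and for Gpx1 the glucose difference without pyruvate and the pyruvate difference at 15 mM glucose. At 15 mM glucose 14 of the 17 probes had a pyruvate difference above the median of their decile, and at 5 mM 6 of 17 did. For the glucose difference it was 5 of 17 with and 13 of 17 without pyruvate. By construction a median has as many probes of its decile above it as below. Several of the 17 probes belong to the same gene and the comparisons share arrays, so these counts are not independent. The error that the scanner software assigns to a difference was about 0.20 for the brighter probes, and it was exceeded by 0 of 17 probes for pyruvate at 5 mM, against 19.7% of all probes. It was exceeded by 3 of 17 in each other comparison, against 31.1% of all probes for pyruvate at 15 mM. For glucose the shares of all probes were 23.1% with and 36.2% without pyruvate. All probes include many dim ones, which spread more. For pyruvate at 15 mM the SD was 0.39 in the decile of the dim Prdx6 probe and 0.14 in that of Gpx1. The share among probes of like level was not counted, so these counts do not rank the members.

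**Figure D3:**
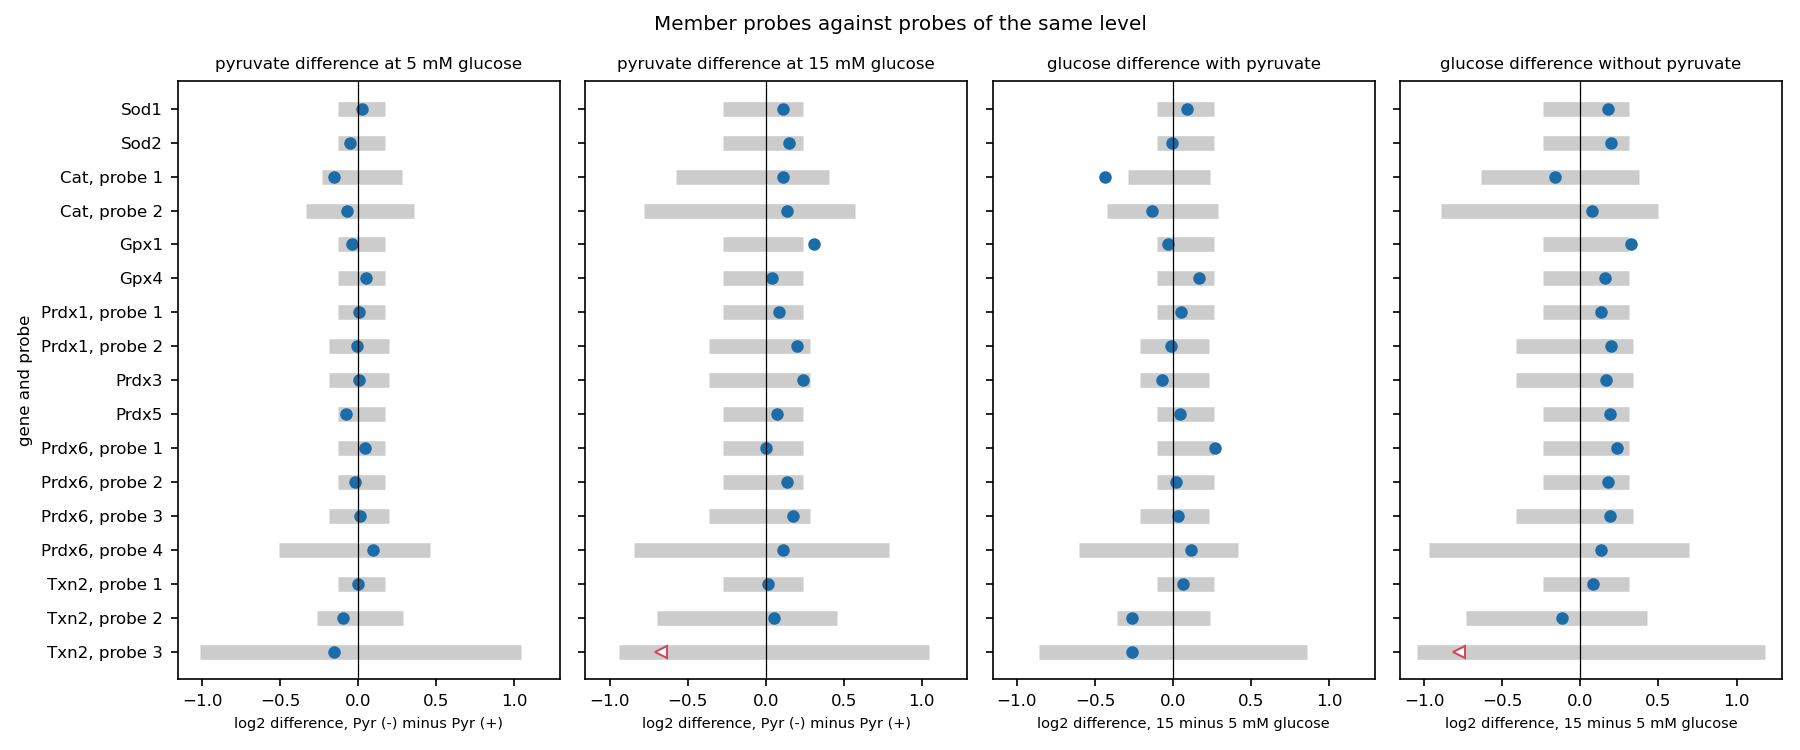
Log2 difference (x axis) of each of the 17 probes (y axis, probes of a gene numbered from the brightest) in the 4 comparisons, 1 panel each. Points are differences, open triangles are bounds, and grey bars span the central 95% of probes in the same decile of levels. Gpx1 at 0.31 for pyruvate at 15 mM glucose, and the brighter Cat probe at -0.43 for glucose with pyruvate, lie outside their bars.

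Taking the brightest probe of each gene, 9 of the 10 were highest of the 4 arrays in [Glc 15 mM/Pyr (-)], against 36.9% of all genes and 50.7% of the genes in the members' range of signal, and the count was 7 to 9 under every other alternative run except 0 under the spike-in scaling. Cat was the exception, highest in [Glc 5 mM/Pyr (+)]. The glucose difference was above 0 for 5 of the 10 genes with pyruvate, against 42.3% of all genes and 60.5% of those in range, and for 8 without pyruvate, against 54.9% and 66.3%. The medians were 0.01 and 0.17, and the ranges -0.28 (Cat) to 0.17 (Gpx4) and -0.27 (Txn2, with a bound) to 0.32 (Gpx1). None of the 10 passed 2-fold, where 2.76% and 4.60% of all genes did, nor 1.5-fold, which 5.91% and 11.0% did. Of the 7971 genes in the members' range of signal, only 12 and 94 passed 1.5-fold. The comparisons share arrays, so their values are not independent of each other.

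Limma fits over all 31274 probes with a value above background called 0 of the 17 probes at an adjusted p under 0.05 in any of the 3 terms (pyruvate, glucose, crossed), and 0.00% of all probes in each. At an unadjusted p under 0.05 stood 0 of the 17 in each term, and 1077, 1496 and 1011 of all probes. The smallest adjusted p among the 17 probes was 0.985, 0.772 and 0.960 in these terms. The unadjusted counts depended on the setting. In the glucose term 2 of 17 stood there with normexp, 3 with spike-in scaling and 4 with an intensity trend. The shares of all probes were 7.14%, 19.2% and 8.67%. In the pyruvate term 1 did with spike-in scaling, against 4.81% of all probes. With 4 arrays a fit leaves 1 residual degree of freedom, so a p that misses the threshold does not show that levels were alike.

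The other genes of these pathways were taken from 5 lists. Among 11 genes that serve thioredoxin and peroxiredoxins, 8 were higher and 3 lower without pyruvate at 5 mM glucose, and 5 were higher and 6 lower at 15 mM, with medians of 0.04 and -0.01. Sesn2, sestrin 2, a stress-responsive protein tied to the repair of oxidized peroxiredoxins, had the largest pyruvate difference of the list at both glucose levels. Its intensities were 5820, 8405, 5772 and 9486, so both arrays without pyruvate stood above both with it, by 0.57 and 0.69 on the log2 scale. With glucose, the largest was Srxn1, sulfiredoxin, at 0.29 with pyruvate, and Nnt, which makes mitochondrial NADPH, at -0.47 without it. The latter came from 2 dim Nnt probes, 1 of them with only a bound, its brightest gave 0.05, and with normexp the gene stood at -0.16.

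Of the 12 glutathione genes, 6 were higher and 6 lower without pyruvate at 5 mM glucose, and 9 and 3 at 15 mM. Over all genes the shares that were higher were 43.0% and 57.3%. Past 2-fold at 15 mM stood 1, against 4.48% of all genes: Gpx2, a glutathione peroxidase best known from the gut lining. Its intensities were 1694, 1562, 1437 and 732, so [Glc 15 mM/Pyr (-)] alone was low, with a pyruvate difference of -1.005 at 15 mM against -0.08 at 5 mM and a glucose difference of -1.002 without pyruvate. It sat at the 2-fold threshold and stood at -0.97 in both with the normexp background correction. Gpx3, the secreted peroxidase, was not well above background in [Glc 5 mM/Pyr (+)], with intensities of 9.92, 17.8, 18.6 and 16.6. Against that signal it read 1.84-fold higher without pyruvate at the same glucose and 2.09-fold higher at 15 mM glucose with pyruvate. These are measured ratios and not lower limits, since that signal was not below the lowest one called well above background. With normexp the log2 differences of Gpx3 were 0.16 and 0.34, so it was no longer past 2-fold.

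The superoxide dismutase partners, Sod3, Ccs and Atp7a, stayed within 0.33 of 0 in every comparison. Sod3, the secreted dismutase, was higher without pyruvate by 0.11 at both glucose levels, and by 0.19 and 0.20 at 15 mM against 5 mM glucose, while Atp7a, a copper pump, had a glucose difference of -0.33 without pyruvate. Of the 11 genes that make superoxide or peroxide 10 could be compared, 3 higher and 7 lower without pyruvate at 5 mM glucose, and 7 and 3 at 15 mM. Of all genes, 43.0% and 57.3% were higher. The largest values at 5 mM and for glucose with pyruvate came from a dim probe. Xdh, xanthine dehydrogenase, stood at -0.73 for pyruvate at 5 mM and -0.72 for glucose with pyruvate through a probe with only a bound, while its probe that was above background on all arrays gave 0.21 and 0.01, and with normexp the gene stood at -0.12 and -0.04.

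Among the 7 regulators, 4 were higher and 3 lower without pyruvate at 5 mM glucose, and 3 and 4 at 15 mM, and none passed 2-fold. The shares of all genes that were higher were 43.0% and 57.3%. Keap1, which holds Nrf2 in check, had the largest pyruvate difference at 5 mM, 0.20. Foxo3, a forkhead factor that drives Sod2 and Cat in other settings, had 0.26 for pyruvate at 15 mM and 0.23 for glucose without pyruvate, from intensities of 30.1 to 38.1, and with normexp these were -0.03 and 0.10. Sirt3, a mitochondrial deacetylase that acts on Sod2 protein, had a glucose difference of 0.25 with pyruvate.

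**Figure D4:**
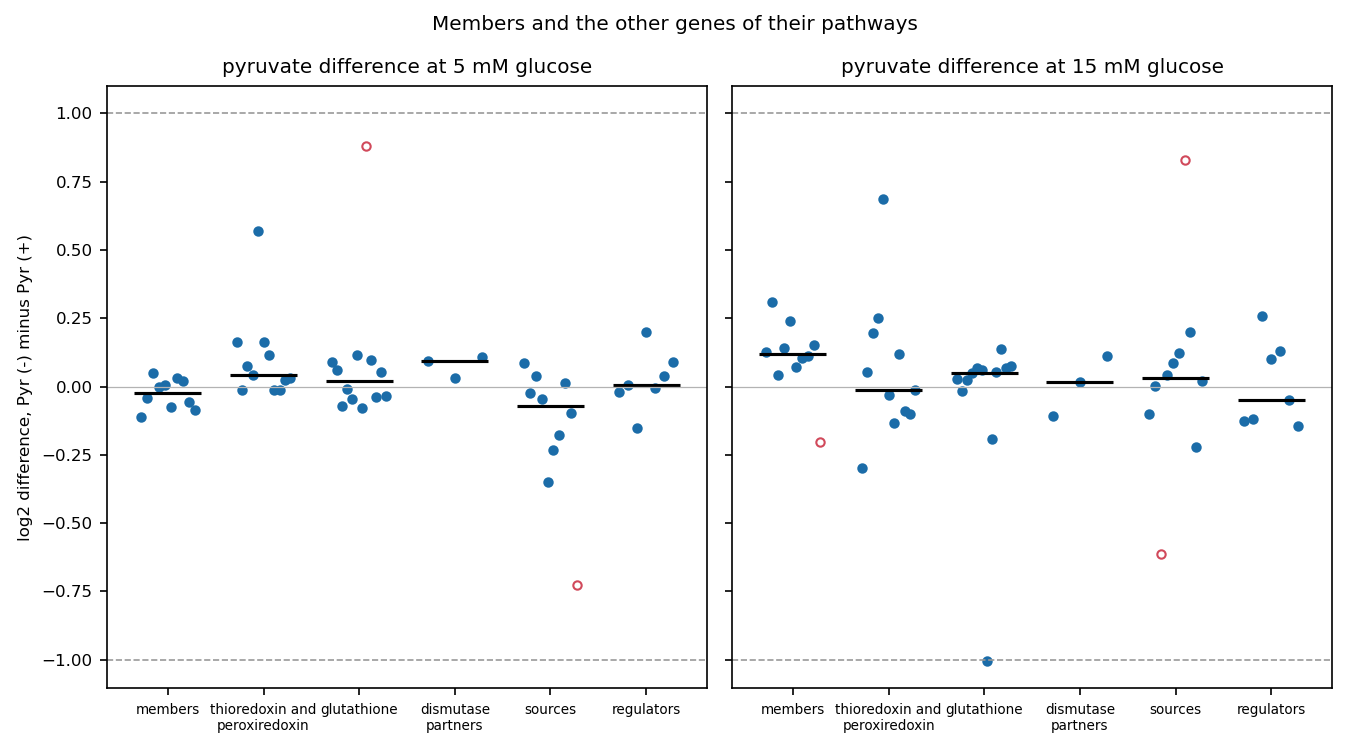
Pyruvate difference (y axis, log2, without minus with pyruvate) of each gene of the 10 members and of the 5 pathway lists (x axis) at 5 and at 15 mM glucose, 1 panel each. Points are genes, open points include a probe well above background on only 1 of the 2 arrays, black bars are list medians, and dashed lines mark 2-fold. The members' median moves from -0.02 to 0.12, Sesn2 stands at 0.57 and 0.69, and Gpx2 lies at -1.005 at 15 mM.

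All 10 Schwann cell markers were well above background on all 4 arrays, 6 of them above the 75th percentile throughout, and Erbb3 and Gfap were among the dim ones. Of the markers of other cells, all 5 for fibroblasts and all 4 for macrophages were well above background on all 4 arrays, as were 2 of 4 for neurons and 2 of 3 for endothelial cells, and above the 75th percentile throughout stood Col1a2, Snap25 and Kdr. Sums of intensity, not scaled between arrays, ran for the Schwann cell markers from 53216 in [Glc 15 mM/Pyr (-)] to 64866 in [Glc 5 mM/Pyr (+)]. That of the fibroblast markers, mostly Col1a2, ran from 87589 to 93733 on the same arrays. On the scaled log2 level, Col1a2 was higher than in [Glc 5 mM/Pyr (+)] by 0.02 in [Glc 5 mM/Pyr (-)] and by 0.09 in [Glc 15 mM/Pyr (+)]. The neuron sum, mostly Snap25, ran from 5938 in [Glc 15 mM/Pyr (-)] to 9684 in [Glc 5 mM/Pyr (+)]. The endothelial sum ran from 4230 in [Glc 15 mM/Pyr (+)] to 5704 in [Glc 5 mM/Pyr (+)]. The macrophage sum ran from 2295 in [Glc 15 mM/Pyr (+)] to 3141 in [Glc 15 mM/Pyr (-)], where Cd68 went from 969 to 1817, Csf1r from 1001 to 1041, Aif1 from 297 to 259 and Ptprc from 27.6 to 23.4. The dim neuron marker Rbfox3 was at least 3.99-fold higher without pyruvate at 15 mM glucose, at intensities of 8.90 with and 42.7 without it. The part of these in the members' values was not tested. In RNA from whole cultures, fewer cells of a type and less RNA per cell cannot be told apart. The 75th percentile itself ran from 1597 in [Glc 15 mM/Pyr (+)] to 1788 in [Glc 5 mM/Pyr (+)], and 28470 to 30344 probes per array were well above background.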

How the data were processed

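Total RNA of the 4 conditions was labelled with Cy3 and hybridized to 4 arrays on 1 slide, 1 array a condition. The labels do not say whether several cultures were pooled, and culture, array and condition cannot be told apart. The authors deposited the scanner output of Agilent Feature Extraction 11.5.1.1 (per the labels), whose processed intensity is background-corrected and not scaled between arrays, with probe positions on mm9. The value table the authors deposited holds a ratio, the processed intensity over the array's 75th percentile of non-control spots, for all 44397 features. GeneSpring GX is named in the methods, with no settings given in the sources used here.

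Spots flagged as outliers and control spots were left out, spots of a probe averaged, and log2 intensity taken minus each array's 75th percentile. A gene is the mean of its probes. A probe entered a comparison if well above background on at least 1 of its 2 arrays, and its value is a bound if below on the other. Where its signal there exceeded the array's lowest signal called well above background, the value equals the measured difference. Fits used limma 3.58.1 in R 4.3.3 with Benjamini-Hochberg adjustment over all probes, first an additive fit of pyruvate and glucose and then one with the crossed term and glucose, and were tested on simulated data. Tables were made with Python 3.11.15, numpy 2.4.6 and pandas 2.3.3, and figures with matplotlib. The alternatives were other scalings (a 75th percentile of the probes that all 4 arrays measured above background, quantile, 8 spike-in probes, the deposited ratios), normexp with offset 50, stricter and no filters, the brightest probe, 1.5-fold and an intensity trend. All members are named with every probe, and from each list the gene with the largest difference in each comparison and each gene past 2-fold, apart from some results that are not reported here. The members and lists were chosen with earlier results of these data known. The count of genes highest in one array, the counts above 0 and the list medians under each scaling were added after seeing the data. Promoters are from RefSeq, and all 10 symbols matched its gene table.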

Additional observations from a re-analysis of the deposited data

How the results depend on the processing

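The counts of members past 2-fold and of member probes called by limma were 0 under all alternatives. The 1.5-fold threshold was applied to the main scaling, where 0 members passed it. Under spike-in scaling Cat had a glucose difference with pyruvate of -0.65, past 1.5-fold and the largest size of any member value. Spike-in scaling moved the median of all genes to -0.22 (pyruvate at 5 mM glucose), -0.02 (pyruvate at 15 mM), -0.39 (glucose with pyruvate) and -0.20 (glucose without pyruvate). With it the median of the 10 members was -0.22 for pyruvate at 5 mM glucose, -0.36 for 15 against 5 mM glucose in cultures given pyruvate and -0.056 in those without, and 0, 0 and 1 members were above 0 there. This scaling moves every gene of a comparison by 1 constant. With it 0 members were highest in [Glc 15 mM/Pyr (-)]. Quantile normalization left 2 members above 0 for glucose with pyruvate. For pyruvate at 15 mM glucose, 8 members were above 0 with the spike-in scaling. No value past 2-fold changed sign. No paired analysis was possible because the labels carry no replicate numbers and each condition has 1 array. Fits without 1 array, which would have no spread left to estimate, were not run, and the slide could not be a block, since all arrays share it. Signal over background limits the dimmest Txn2 probe, Gpx3, and a probe each of Xdh and Nnt.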
